A study of Mus musculus with 28 samples.

Results

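The clustered protocadherins are 3 neighbouring gene families, alpha, beta and gamma, on mouse chromosome 18. All rows of the count table whose symbol begins with Pcdha, Pcdhb, Pcdhga, Pcdhgb or Pcdhgc were taken, which gave 59 of 24079 rows: 15 alpha, 22 beta and 22 gamma members, the last made up of 12 gamma A, 7 gamma B and 3 gamma C genes. In the GENCODE M21 annotation (GRCm38) the annotated alpha genes span 36930184 to 37187661, the beta genes 37264938 to 37524479 and the gamma genes 37661793 to 37841873, all on the plus strand of chromosome 18. Of the 59, 57 were matched there, and Pcdha10 and Pcdha4-g were not.

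These genes encode cadherin-like adhesion proteins of the cell surface. Each alpha or gamma gene contributes a long variable first exon with its own promoter, which is spliced to constant exons shared by its family, whereas each beta gene stands alone. They are best known from neurons, where promoter choice through CTCF, cohesin and DNA methylation gives single cells different sets of isoforms, and where contacts between cells that carry matching sets allow neurites to tell self from non-self. Pcdhac1, Pcdhac2, Pcdhgc3, Pcdhgc4 and Pcdhgc5, the C-type members at the ends of the alpha and gamma arrays, are known for a less random choice than the others.

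RNA was sequenced from RAS/DNP53-transformed fibroblasts of mouse embryos of mixed C57BL/6 and 129Sv background, in a study of cyclin D1. Clones 12 and 14 carry Ctag-Cyclin D1, a tagged form; each gave 8 libraries: siRNA against FLAG, HA or cyclin D1 (Qiagen, Nature and Life sequences), SCR control siRNA, no treatment, and leptomycin B at 20 ng/mL, a blocker of nuclear export. Clones 25 and 18, with untagged cyclin D1, gave 3 libraries each (SCR, FLAG and HA siRNA). Clone 18 was also the parent of lines with mCherry/PURO or FLAG-mCherry-HA/PURO, which gave 6 libraries with HA or FLAG siRNA. Every line came from a single clone, and with 2 tagged and 2 untagged clones the effect of the tag itself was not tested. What the n of 3 or 4 in the library titles counts is not stated, so each library was taken as 1 sample, and p-values measure the spread of libraries around their clone and treatment.

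Library totals ranged from 26558256 to 81512769 counts, of which 917 to 13106 were in the 59 members. Ccnd1, the cyclin D1 gene, was at 50.1 to 329 CPM (counts scaled to the library total and its composition) in the 10 libraries of tagged clones that received tag or cyclin D1 siRNA, and at 760 CPM or more in the other 18. All 13 fibroblast markers reached a mean of 1 CPM in clones 12, 25 and 18 and in the mCherry lines. In clone 14, 11 did, and Col1a1 and Thy1 did not. Col1a2 was near the limit in clone 14, at 0.201 to 2.24 CPM. Of 18 neural markers, 6 to 8 reached 1 CPM in a line and 3 to 5 had no counts there. Macrophage markers summed to at most 6.82 CPM and endothelial markers to at most 1.95 CPM in any library. Epithelial markers summed to 970 to 1958 CPM in clone 14 and 87.4 to 229 CPM in clone 12. Their sums were 371 to 614 CPM in clone 25, 608 to 1135 CPM in clone 18 and 710 to 1174 CPM in the mCherry lines. Most of each sum was Krt18, at 929 to 1919 CPM in clone 14. Libraries also differed in the balance of long against short transcripts, measured as the log2 level of 1529 genes with transcripts over 6000 bases minus that of 911 genes under 1500 bases, relative to the median library of the line. This balance was lowest in Nature siRNA of clone 12 (-0.91), HA siRNA of mCherry replicate 2 (-0.75) and HA siRNA of clone 14 (-0.54), and highest in untreated clone 14 (0.82).

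Expression was almost wholly from the beta and gamma clusters. The 15 alpha genes had 105 reads in all 28 libraries together, the beta genes 13812 and the gamma genes 112693, of which Pcdhgc3 alone had 79278. No read at all was listed for 8 alpha genes and for Pcdhb1, and 25 members had a read in every library. In SCR clone 12 Pcdhgc3 had 7619 reads and Pcdhgb7 had 0, so reads in shared constant exons were not added to every gamma member. The alpha family has constant exons of its own, to which these values do not apply. How such reads were counted, and whether near-identical members lost reads, is not stated. In bulk RNA a low level in few cells and a lower level in all cells cannot be told apart.

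**Figure D1:**
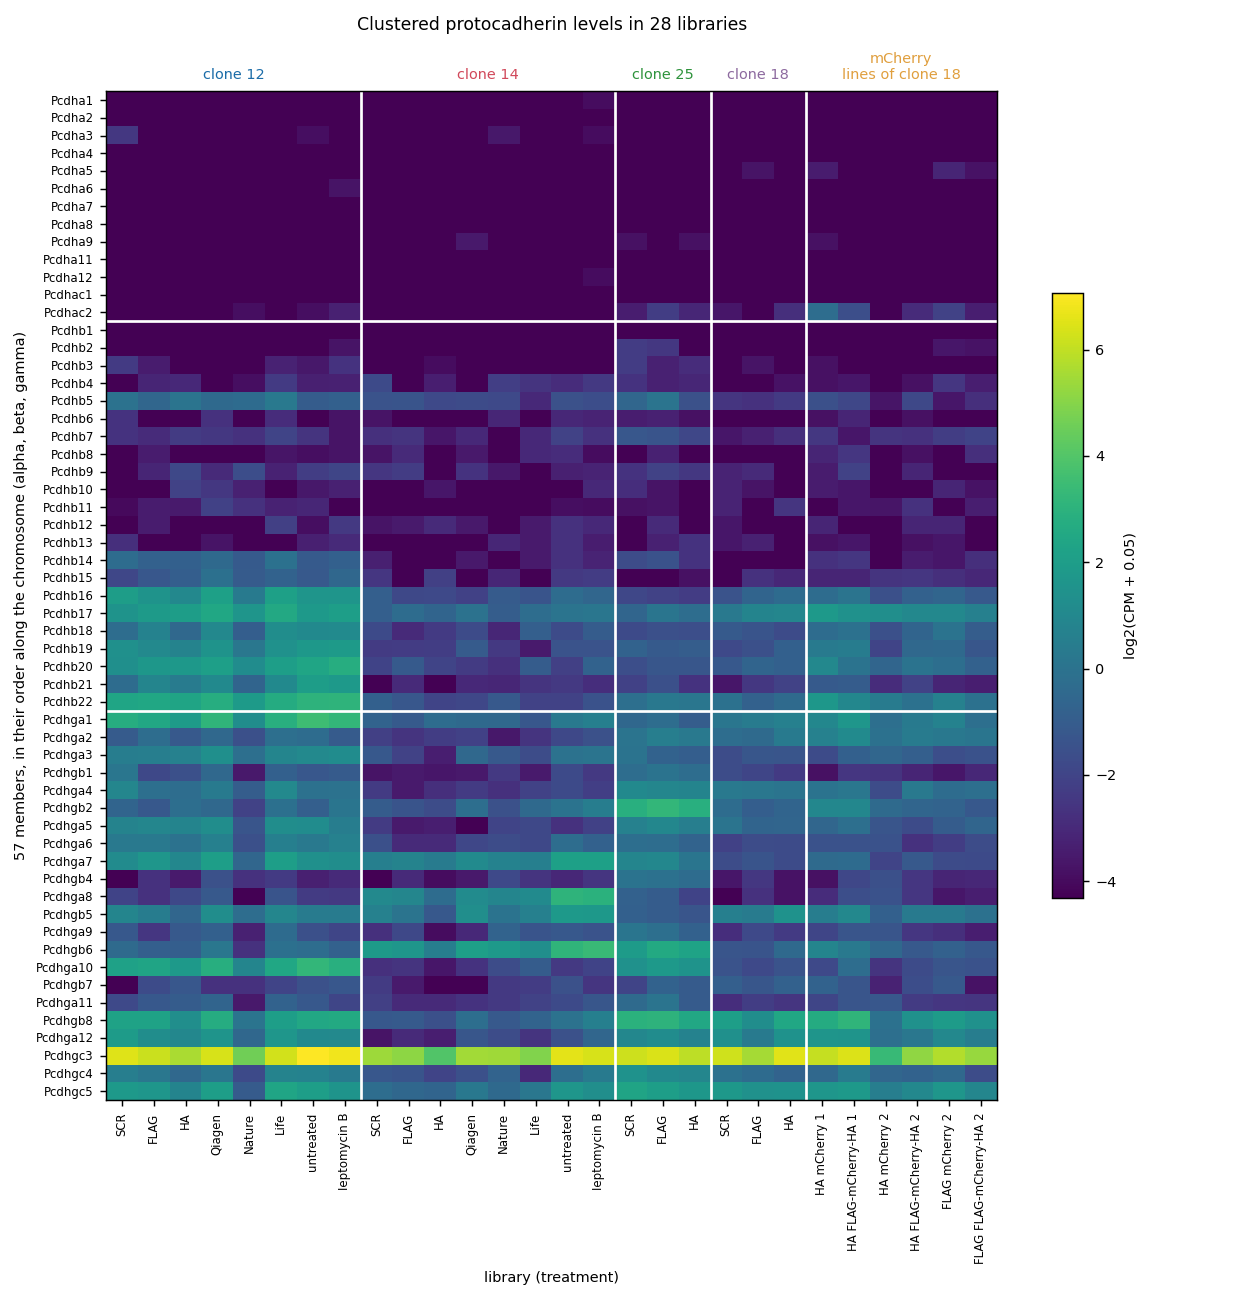
Level of the 57 positioned members (rows, in their order along the chromosome) in each of 28 libraries (columns, by clone), as log2(CPM + 0.05); white lines separate clusters and clones. Most alpha cells are at the bottom of the scale, Pcdhgc3 is the brightest row, and the block from Pcdhb16 to Pcdhb22 is brighter in clone 12 than in clone 14.

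Of the alpha genes, Pcdhac2, the C-type gene at the end of the cluster, had 78 of the 105 reads. It had no read in any of the 8 libraries of clone 14 and 0 to 2 reads in those of clone 12. Clone 25 libraries had 2, 6 and 3 reads (SCR, FLAG, HA) and clone 18 libraries 1, 0 and 4. The mCherry lines ranged from 0 to 0.785 CPM, the last being 37 reads in HA siRNA of mCherry replicate 1. The next alpha genes, Pcdha3 with 14 reads in total, Pcdha5 and Pcdha9, were near 0 in every line. Apart from Pcdhac2 in the mCherry lines and clone 25, and Pcdha3 in SCR clone 12, alpha genes had at most a few reads in a library.

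The summed level of the beta family set clone 12 apart. It stood at 25.7 ± 6.98 CPM (SD, n = 8) in clone 12, against 3.08 ± 0.819 (n = 8) in clone 14, 5.07 ± 0.923 (n = 3) in clone 25, 4.53 ± 0.687 (n = 3) in clone 18 and 7.85 ± 3.00 (n = 6) in the mCherry lines. The lowest clone 12 library, at 14.4 CPM, lay above the highest library of any other line, at 12.7 CPM. In clone 12 the 7 beta genes whose mean reached 1 CPM were the adjacent genes Pcdhb16 to Pcdhb22 at the gamma side of the cluster. Pcdhb22 ranged from 3.62 to 8.45 CPM there (median 5.96) and from 0.189 to 0.519 CPM in clone 14 (median 0.269). Per kilobase of own exon, Pcdhb20 was the highest beta gene in clone 12, at 1.11 ± 0.425 CPM per kb (n = 8), ahead of Pcdhb22 at 0.998 ± 0.266 and Pcdhb17 at 0.870 ± 0.236; these neighbours in the order overlapped. Pcdhb17 was first per kilobase in 8 of 8 clone 14 libraries, 3 of 3 clone 18 libraries and 6 of 6 mCherry libraries. In clone 25 Pcdhb5, Pcdhb17 and Pcdhb22 lay within their spread of each other, at 0.181 ± 0.0984, 0.172 ± 0.0461 and 0.163 ± 0.0242 CPM per kb (n = 3).

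The gamma A and B genes, the 19 variable members that make up most of the gamma array, had a different leading set in each clone. In clone 12 Pcdhga1 and Pcdhga10 led, at 2.13 ± 0.923 and 2.09 ± 0.895 CPM per kb (SD, n = 8), followed by Pcdhgb8 at 1.76 ± 0.756, with overlapping ranges. In clone 14 Pcdhgb6 was first in 8 of 8 libraries at 1.83 ± 1.26 CPM per kb, followed by Pcdhga8 at 1.34 ± 1.17 and Pcdhga7 at 0.742 ± 0.418. Clone 25 was led by Pcdhgb2 and Pcdhgb8, both at 2.87 CPM per kb (SD 0.434 and 0.522, n = 3), with Pcdhgb6 at 1.90 ± 0.411. Clone 18 was led by Pcdhgb8 in 3 of 3 libraries at 1.60 ± 0.634 CPM per kb, and the mCherry lines derived from it were led by Pcdhgb8 in 6 of 6 at 1.66 ± 1.13. In both, Pcdhga4 was next, at 0.700 ± 0.0572 and 0.537 ± 0.204 CPM per kb. This rank rests on its own exon length of 1570 bases, the shortest of the gamma genes. In CPM, Pcdhga4 had a mean of 1.10 in clone 18, behind Pcdhga12 (2.17), Pcdhgb5 (1.83) and Pcdhga1 (1.29).

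Of the C-type gamma genes, Pcdhgc3 and Pcdhgc5 reached a mean of 1 CPM in every line, and Pcdhgc4 did so in clones 12 and 25. Pcdhgc3, known as the broadly used member of the family, was the highest member per kilobase in each of the 28 libraries. It was at 80.6 ± 34.6 CPM (SD, n = 8) in clone 12, 48.6 ± 27.3 (n = 8) in clone 14, 73.3 ± 13.1 (n = 3) in clone 25, 71.8 ± 23.7 (n = 3) in clone 18 and 49.2 ± 26.9 (n = 6) in the mCherry lines, with overlapping ranges between all lines. It took a mean of 55.2% of member reads in clone 12, 69.2% in clone 14, 59.8% in clone 25, 74.6% in clone 18 and 61.6% in the mCherry lines. Pcdhgc5 had a mean of 1.31 CPM in clone 14 and between 2.49 and 4.11 CPM elsewhere. Pcdhgc4 was highest in clone 25, at 2.21 ± 0.491 CPM (n = 3), and lowest in clone 14, at 0.492 ± 0.384 (n = 8).

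Counted as members with a mean of at least 1 CPM, clone 12 had 20 of 59, clone 25 had 13, clone 18 had 8, clone 14 had 6 and the mCherry lines had 10. Over all rows of the table, 46.0% to 48.4% passed the same limit in each line. Only Pcdhgc3 and Pcdhgc5 passed in all 4 clones. Exactly 1 clone passed for 10 members: Pcdhb16, Pcdhb18, Pcdhb19, Pcdhb20, Pcdhb21, Pcdhga3 and Pcdhga6 in clone 12, Pcdhga8 in clone 14, and Pcdhga2 and Pcdhgb2 in clone 25. Of these, Pcdhga2 and Pcdhgb2 also passed in the mCherry lines of clone 18, at means of 1.34 and 1.00 CPM. A further 7 members passed in 2 clones and 5 in 3, and 35 passed in none. Clones 12 and 14 shared 4 members, 20% of the clone 12 set and 66.7% of the clone 14 set. All 8 members of the clone 18 set were in the clone 12 set, of which they made up 40%. Clone 18 and its mCherry lines shared 7 members, 87.5% and 70% of their sets. The counts moved with the limit: at 2 CPM clone 12 had 13, clone 25 had 7 and clone 18 had 4, and at 0.5 CPM clone 14 had 10, clone 25 had 22 and clone 18 had 14.

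Within a clone, the shares of the leading gamma A and B genes varied less than their levels. In clone 12 the share of gamma A and B reads in Pcdhga1 ran from 16.7% to 27.2% (median 19.9%, 8 libraries), a 1.63-fold range, whereas its level ran from 2.36 to 11.5 CPM, a 4.89-fold range. Pcdhga1, Pcdhga10 and Pcdhgb8 were the top 3 by reads in 8 of 8 clone 12 libraries. In clone 14 Pcdhgb6 took 20.9% to 31.3% (median 28.3%) and Pcdhga8 12.9% to 26.3% (median 17.8%), and both were among the top 3 in 8 of 8, although in HA siRNA Pcdhga8 tied for the third place with Pcdhga1 at 48 reads. In clone 25 Pcdhgb2, Pcdhgb8 and Pcdhgb6 were the top 3 in 3 of 3, with shares of 19.8% to 22.1%, 17.5% to 20.9% and 10.3% to 15.1%. Pcdhgb8 took 19.9% to 29.3% in clone 18 and 22.1% to 30.9% in 5 of the 6 mCherry libraries. The exception, HA siRNA of mCherry replicate 2, had 10.2% in Pcdhgb8, rested on 303 gamma A and B reads, and was among the 3 libraries with the lowest long-transcript balance. Shares are of reads and were not corrected for exon length.

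**Figure D2:**
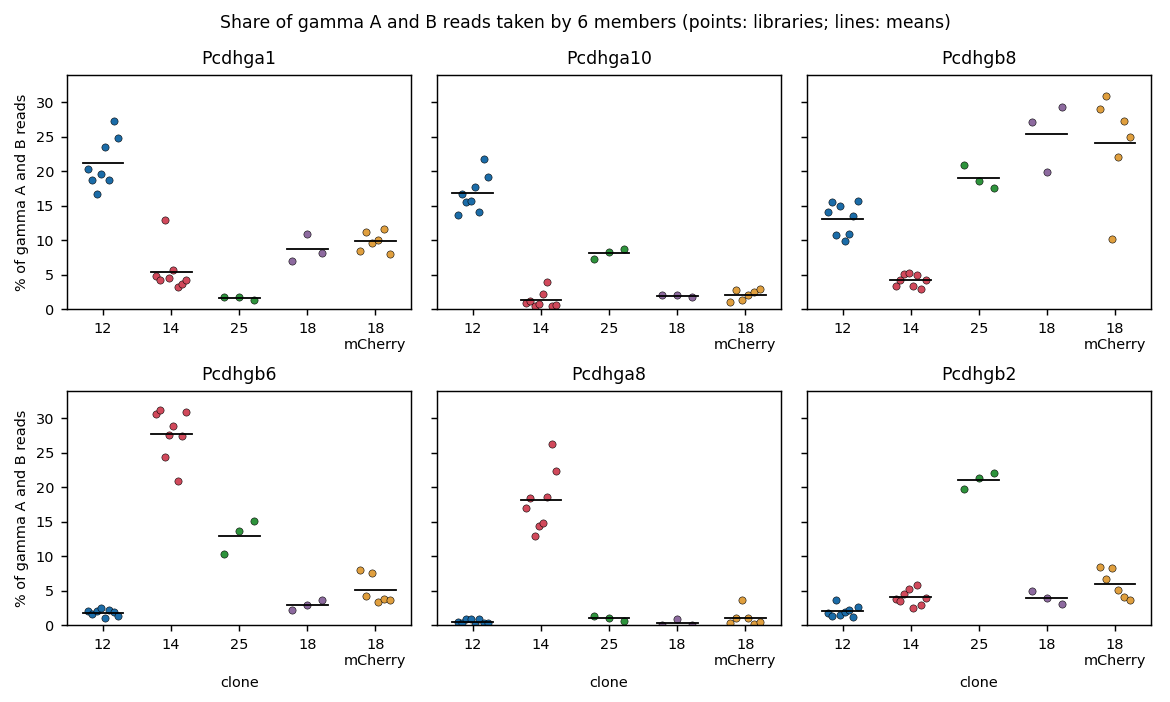
Percent of gamma A and B reads assigned to each of 6 members (panels), with a point for each library and a line at the mean of each line of cells. Pcdhga8 lies at 12.9% to 26.3% in clone 14, and the single low point of Pcdhgb8 in the mCherry lines is the library at 10.2%.

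Whole gamma A and B profiles were compared as the percent of reads that would have to be reassigned to make 2 libraries equal. Within clone 12 the 28 pairs of libraries differed by a median of 14.5%, within clone 14 by 15.2% (28 pairs), within clone 25 by 7.88% (3 pairs) and within clone 18 by 16.3% (3 pairs). Between different clones the medians ran from 39.5% to 61.2%, with clones 12 and 14 at 60.6% (50.7% to 70.0% over 64 pairs). The mCherry lines differed from clone 18 by a median of 16.5%, close to the 16.2% among themselves. Single pairs of these reached 38.6% and 32.7%, above the lowest pair of clones 12 and 18, at 29.3%. Differences within and between clones of origin thus overlapped. The most similar library came from the same clone of origin for 28 of 28 libraries. These differences are descriptions: libraries of a clone share their cells, and those with fewest reads carry the most counting error.

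Which members differ between clones was tested with edgeR's quasi-likelihood test over all genes, with Benjamini-Hochberg adjusted p under 0.05 as the limit for a call. The low-count filter was passed by 35 members in the fit of all 28 libraries (Pcdhac2, 12 beta and 22 gamma) and by 33 in a fit of the 12 libraries with SCR, FLAG or HA siRNA. The remaining 24 members, 14 alpha and 10 beta, had too few reads. Among the 4 clones, 32 of 33 tested members differed, where 83.4% of all tested genes did, so the clones differed widely in the transcriptome as a whole. The member not called was Pcdhgb7 (adjusted p = 0.105).

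Clone 14 had lower levels than clone 12 for most members, and higher levels of a pair of gamma genes. Of 35 tested members, 25 were called, where 62.6% of all tested genes were; 23 were lower in clone 14 (33.4% of all genes were) and 2 were higher (29.2%). Members at least 4-fold apart made up 54.3% (19 of 35), against 15.4% of all tested genes and 30% of the 6270 tested genes with a mean under 10 CPM. The median log2 difference of the tested members was -1.98, against -0.05 for all genes. All 10 called beta genes were lower in clone 14.

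Pcdhb22, with 3.62 to 8.45 CPM in clone 12 and 0.189 to 0.519 CPM in clone 14, had a log2 difference of -4.35 ± 0.24 (SE; edgeR adjusted p = 1.3e-11). Pcdhb17 had 2.84 to 5.82 CPM in clone 12 and 0.468 to 1.07 CPM in clone 14, a log2 difference of -2.40 ± 0.15 (edgeR adjusted p = 8.42e-11). Pcdhb20 had 2.25 to 6.85 CPM against 0.100 to 0.544 CPM, a difference of -3.87 ± 0.24 (edgeR adjusted p = 8.86e-11). Of the gamma genes, Pcdhga10 fell furthest, from 1.77 to 9.23 CPM in clone 12 to 0.031 to 0.455 CPM in clone 14 (log2 difference -5.04 ± 0.33, edgeR adjusted p = 2.02e-10). These 4 genes, named for their small p in this comparison, had no overlap between libraries of clone 12 and clone 14. The share of all tested genes without overlap was not counted, so the separation adds nothing to the calls.

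The 2 genes higher in clone 14 lie close together in the middle of the gamma array. Pcdhga8 had 0 to 0.410 CPM in clone 12 and 0.754 to 8.40 CPM in clone 14 (log2 difference 3.96 ± 0.48, edgeR adjusted p = 8.91e-07). Pcdhgb6 had 0.104 to 1.10 CPM in clone 12 and 1.43 to 10.6 CPM in clone 14 (2.79 ± 0.31, edgeR adjusted p = 3.08e-07). Neither gene overlapped between the clones, but both were named because they were called in this comparison. Between them in the array, Pcdhgb5 (0.632 to 2.38 CPM against 0.393 to 3.37 CPM) and Pcdhga9 were not called, so the difference did not run evenly along neighbouring genes. Pcdhgc3 itself was lower in clone 14 by a smaller step, -0.79 ± 0.24 (edgeR adjusted p = 0.00918), with overlapping libraries.

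**Figure D3:**
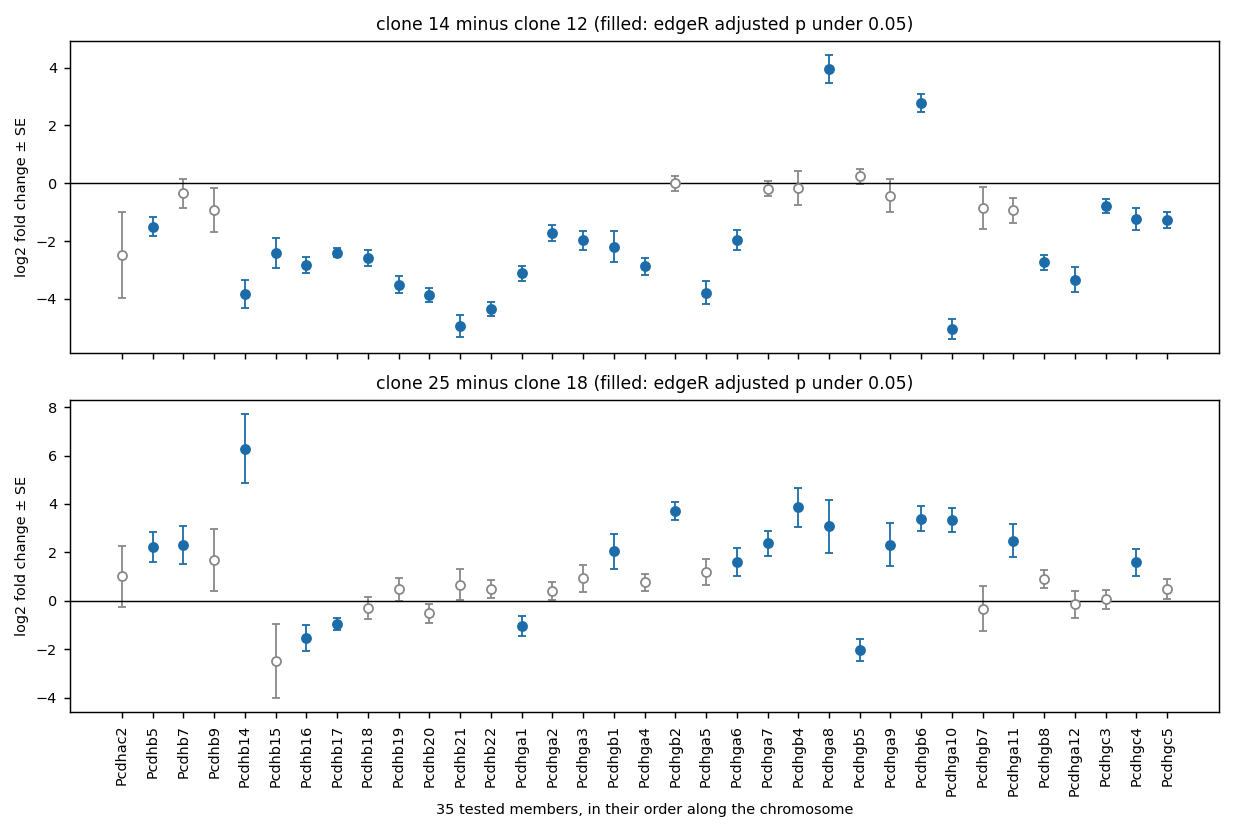
Log2 fold change with its standard error for the 35 tested members, in their order along the chromosome, for clone 14 minus clone 12 (top) and clone 25 minus clone 18 (bottom); filled points are called by edgeR. In the top panel Pcdhga8 at 3.96 and Pcdhgb6 at 2.79 stand above 23 lower members; in the bottom panel Pcdhb14 rests on 0 reads in clone 18, so its fitted value is not a measured fold.

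Marker lists moved with this clone difference as well. All 13 fibroblast markers were called between clones 14 and 12, 11 of them lower in clone 14 and 2 higher, with a median log2 difference of -2.85. Their summed level was 7650 to 13033 CPM in clone 14 and 11652 to 15698 CPM in clone 12. The sums do not show single genes. Col1a2 was at 0.201 to 2.24 CPM in clone 14 and 1771 to 2505 CPM in clone 12. Col6a1 was at 1.41 to 3.22 CPM and 194 to 411 CPM. Of 12 tested neural markers 10 were called, 4 higher and 6 lower, with sums of 70.1 to 129 CPM and 94.8 to 150 CPM. Of 4 tested epithelial markers 3 were higher in clone 14 and 1 was lower. Their part in the protocadherin difference was not tested.

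Clone 25 had higher levels than clone 18 of a set of gamma genes. Of 35 tested members 18 were called, where 47.6% of all tested genes were; 14 were higher in clone 25 (22.9% of all genes) and 4 were lower (24.6%). Members at least 4-fold apart made up 40% (14 of 35), against 12.8% of all tested genes and 26.2% of genes with a mean under 10 CPM. The count was 9 to 12 when any of the 6 libraries of these clones was left out: 9 without FLAG clone 25, 10 without FLAG clone 18, 11 without SCR clone 25 or SCR clone 18, and 12 without HA clone 25 or HA clone 18.

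Pcdhgb2 had 7.32, 9.31 and 7.15 CPM in clone 25 (SCR, FLAG, HA) and 0.770, 0.474 and 0.585 CPM in clone 18, a log2 difference of 3.70 ± 0.36 (edgeR adjusted p = 1.94e-07). Pcdhga10 had 2.70, 3.58 and 2.85 CPM against 0.326, 0.237 and 0.327 CPM (3.34 ± 0.49, edgeR adjusted p = 2.32e-05). Pcdhgb6 had 3.81, 5.92 and 4.89 CPM against 0.355, 0.342 and 0.702 CPM (3.39 ± 0.51, edgeR adjusted p = 3.34e-05). In each of these genes, named for their small p, all 3 clone 25 libraries lay above all 3 clone 18 libraries. The share of all tested genes so separated was not counted. Pcdhgb4 had 0.952, 0.894 and 0.761 CPM in clone 25 and at most 0.132 CPM in clone 18 (3.86 ± 0.79, edgeR adjusted p = 0.000744). The 4 members lower in clone 25 were Pcdhb16, Pcdhb17, Pcdhga1 and Pcdhgb5, the last at 0.509, 0.447 and 0.348 CPM against 1.48, 1.29 and 2.71 CPM (-2.01 ± 0.45, edgeR adjusted p = 0.00137). Pcdhb14 had no read in clone 18. Its clone 25 mean of 0.230 CPM was 2.90-fold above a floor of 3 reads per clone 18 library (0.0793 CPM). That mean rests on 12, 12 and 5 reads (SCR, FLAG, HA), with HA at 0.109 CPM. The 2.90 leaves out their counting error and is not a lower bound. Marker lists moved with this difference too. Of 12 tested neural markers 7 were called, 3 higher and 4 lower in clone 25; their sum of 621 to 655 CPM against 259 to 267 CPM in clone 18 was mostly Nes (580 to 602 against 126 to 153 CPM), while Sox2 was at most 0.109 CPM against 68.2 to 86.8 CPM. Of 13 fibroblast markers 12 were called, 5 higher and 7 lower, with sums of 8368 to 9487 CPM against 13755 to 14335 CPM. Of 4 tested epithelial markers 3 were lower. Their part in the protocadherin difference was not tested.

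The siRNAs to the tag or to cyclin D1 gave 0 and 1 called members, close to what the shares of all genes give, so the counts show nothing particular to the family. In the tagged clones, FLAG and HA siRNA against SCR gave 0 called members with edgeR, where 3.86% of all tested genes were called (2.03% higher, 1.83% lower); 4 members had an unadjusted p under 0.05, and DESeq2 also called 0. The estimates were negative for 24 of 35 members, against 46.8% of all genes, and their median size was 0.45 on the log2 scale, against 0.25 for all genes. In the untagged clones, which lack the target of these siRNAs, the same comparison gave 0 called members with edgeR (2.68% of all genes; 1.21% higher, 1.47% lower), 1 at an unadjusted p under 0.05, and 0 with DESeq2. The test of the difference between those responses called 0 members (0.00662% of all genes), with 0 at an unadjusted p under 0.05 and 0 with DESeq2. In the tagged clones the tag and cyclin D1 siRNAs were compared with the same SCR libraries.

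The 3 cyclin D1 siRNAs against SCR gave 1 called member, Pcdhgb4, where 5.4% of all tested genes were called (2.68% higher, 2.72% lower). It had 0 reads in both SCR libraries and 1 to 12 reads in the 6 libraries with cyclin D1 siRNA, whose mean was 0.157 CPM. No fold is given, since SCR clone 12 lacked low counts in general and had 9.57 reads of Pcdhgb4 predicted from the other libraries of the clone (edgeR adjusted p = 0.0332). Untreated cells of clones 12 and 14 stood at 0.0487 and 0.0687 CPM. The call ended without SCR clone 12 (adjusted p = 0.464), a library with many genes at 0, and also without SCR clone 14 (0.0704), Qiagen clone 12 (0.106) or Life clone 12 (0.0595).

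Leptomycin B against untreated gave 0 called members with edgeR, where 9.99% of all tested genes were called (4.29% higher, 5.7% lower), with 0 at an unadjusted p under 0.05 and 0 with DESeq2. Pcdhgc3 stood at 134 and 97.5 CPM in untreated clones 12 and 14 and at 115 and 81.9 CPM with leptomycin B. SCR siRNA against untreated gave 1 called member, Pcdhb21 (5.29% of all genes; 1.68% higher, 3.61% lower), at 0.764 against 3.98 CPM in clone 12 and 0 against 0.137 CPM in clone 14 (log2 difference -2.53 ± 0.65, edgeR adjusted p = 0.0324). This call ended without SCR clone 12 (adjusted p = 0.184), untreated clone 12 (0.172) or untreated clone 14 (0.114). Of the 35 tested members 29 had a negative estimate, against 51.9% of all genes.

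Libraries that had been transfected with any siRNA had lower levels of the family than those that had not. The 6 siRNA libraries of clone 14 summed to 24.5 to 63.6 CPM over the 59 members, and the untreated and leptomycin B libraries to 137 and 124 CPM. In clone 12 the 6 siRNA libraries summed to 49.4 to 163 CPM and the other 2 to 213 and 191 CPM, so in neither clone did the sums overlap. This comparison was chosen after seeing the data. In the edgeR fit, 16 of 35 tested members were lower with transfection (21.9% of all genes were) and 0 were higher (17.4%), where 39.3% of all genes were called. The median log2 difference of the members was -0.80, against -0.02 for all genes.

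Pcdhgc3 was the clearest case. Its 6 siRNA libraries lay at 24.3 to 91.0 CPM in clone 12, below 134 and 115 CPM without transfection, and at 15.7 to 44.1 CPM in clone 14, below 97.5 and 81.9 CPM (log2 difference -1.19 ± 0.26, edgeR adjusted p = 0.0016). Pcdhga1 also had all 6 siRNA libraries below the other 2 in each clone, at 2.36 to 8.73 CPM against 11.5 and 9.36 CPM in clone 12 (-1.02 ± 0.25, edgeR adjusted p = 0.00339). These were the 2 members, of 35 tested, whose siRNA libraries lay below both others in both clones, where 3.88% of all tested genes did so. Pcdhb21 (-1.50 ± 0.34, edgeR adjusted p = 0.00214) and Pcdhgc5 (-1.14 ± 0.29, edgeR adjusted p = 0.00496) were the others among the 4 smallest p. In clone 12 alone 7 members were so separated, against 6.52% of all genes. In clone 14 alone 18 were, against 17.6% of all genes, among them its leading genes Pcdhgb6, with 1.43 to 4.21 CPM against 8.75 and 10.6 CPM, and Pcdhga8, with 0.754 to 2.2 CPM against 8.40 and 7.65 CPM.

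In clone 14 the long-transcript balance moved with this comparison. It was 0.82 and 0.39 there in untreated and leptomycin B libraries and -0.54 to 0.02 in siRNA libraries. In clone 12 it overlapped, at 0.46 and -0.02 against -0.91 to 0.38. There SCR, Qiagen and Life siRNA had a higher balance than leptomycin B (0.09, 0.38 and 0.23 against -0.02). Their sums were lower (150, 163 and 154 against 191 CPM). FLAG, HA and Nature siRNA of clone 12 had a lower balance and lower sums than leptomycin B. In 5 of 5 lines the library with the lowest balance also had the lowest summed member level, and in 4 of 5 the highest balance went with the highest sum. With the balance as a covariate, a fit added after seeing the data, 0 of the 16 calls were left with edgeR (0 members at an unadjusted p under 0.05), and the estimate for Pcdhgc3 was -0.17 (adjusted p = 0.603). The count was 7 without untreated clone 14, 4 without leptomycin B clone 14, and 0 without the clone as a block. In clone 14 transfection and the balance moved together and cannot be told apart, and in clone 12 their separate parts were not tested. The same covariate left 28 members called between clones 14 and 12 and 21 between clones 25 and 18. The shares of all genes called in these refits are not given, so their counts do not show a change particular to the family.

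**Figure D4:**
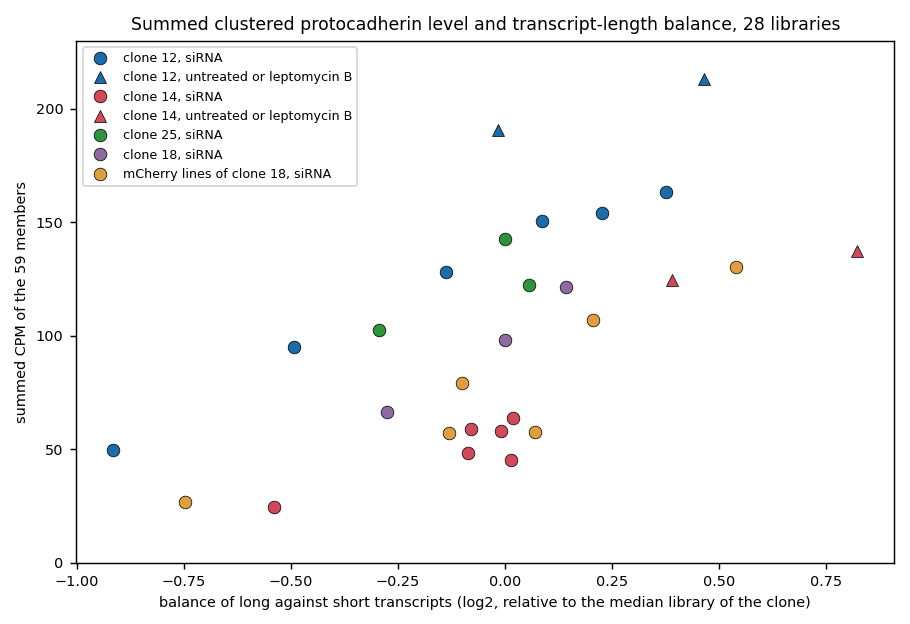
Summed CPM of the 59 members (vertical axis) against the log2 balance of long over short transcripts relative to the median library of the line (horizontal axis), with a point for each of 28 libraries. Circles are siRNA libraries and triangles untreated or leptomycin B libraries; the 3 leftmost points have sums of 49.4, 26.5 and 24.5 CPM, the lowest of their lines.

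Few genes of any kind were called among the mCherry lines or against their parent, so 0 called members says little about the family. Tagged against untagged mCherry gave 0 called members with edgeR, where 0% of all tested genes were called, with 0 at an unadjusted p under 0.05 and 0 with DESeq2. The mCherry lines against clone 18 with the same siRNAs gave 0 called members with edgeR (0.444% of all genes; 0.265% higher, 0.179% lower), 3 at an unadjusted p under 0.05, all of them beta genes, and 0 with DESeq2. Pcdhb17 was at 1.55 ± 0.344 CPM (SD, n = 3) in clone 18 and at 2.34 ± 0.71 CPM (n = 6) in the mCherry lines, with overlapping libraries. Pcdhb22 was at 0.526 to 0.889 CPM in clone 18 and 0.899 to 3.18 CPM in the mCherry lines, which did not overlap, although the comparison with matched siRNAs did not pass the limit. How many of all genes were without overlap here was not counted.

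The SCR library of clone 12 had the largest total of the series, yet 9947 rows at 0, against 7768 to 9525 in the other 27 libraries. Only 445 of its rows held 1 to 5 reads, against 1832 to 2459 elsewhere. Reads predicted for it from the share of each gene in the other 7 clone 12 libraries were compared with those found. Of 32 members with at least 10 reads predicted, 2 were at 0: Pcdhgb7, with 19.7 predicted and 4 to 19 reads in each of the other 7 libraries, and Pcdhb9, with 12.2 predicted and 2 to 16 reads in the others. Over all genes 307 of 13530 with such a prediction were at 0, which is 2.27%, and no other library of the 4 clones had more than 16. For members the other 21 libraries gave 1 such zero, Pcdhga8 in Nature siRNA of clone 12. A count of 0 in this library allows up to 3 reads by counting error alone, that is 0.0358 CPM. Lower limits gave more zeros, 4 members with at least 5 reads predicted, and at 20 reads predicted there were 0.

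The same library also held more reads than predicted for some members of low level. Pcdha3 had 11 reads, where the other 7 libraries of clone 12 had 1 read together. Pcdhgb1 had 90 reads against 29.5 predicted, Pcdhb3 had 12 against 2.77, and Pcdhb13 had 8 against 1.78; these 4 were picked out after their values were seen. Members of higher level were detected but lay on both sides of the prediction. Pcdhgb8 had 393 reads against 355 predicted, Pcdhgc3 7619 against 6426 and Pcdhga12 311 against 173. Lower than predicted were Pcdhb22 with 433 against 509, Pcdhb20 with 211 against 336 and Pcdhb21 with 64 against 177. The examples were picked after their values were seen. The top 3 gamma A and B genes by reads were the same in this library as in the other 7, and the number of members with a mean of at least 1 CPM in clone 12 was 19 to 20 with any 1 of its 8 libraries left out.

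**Figure D5:**
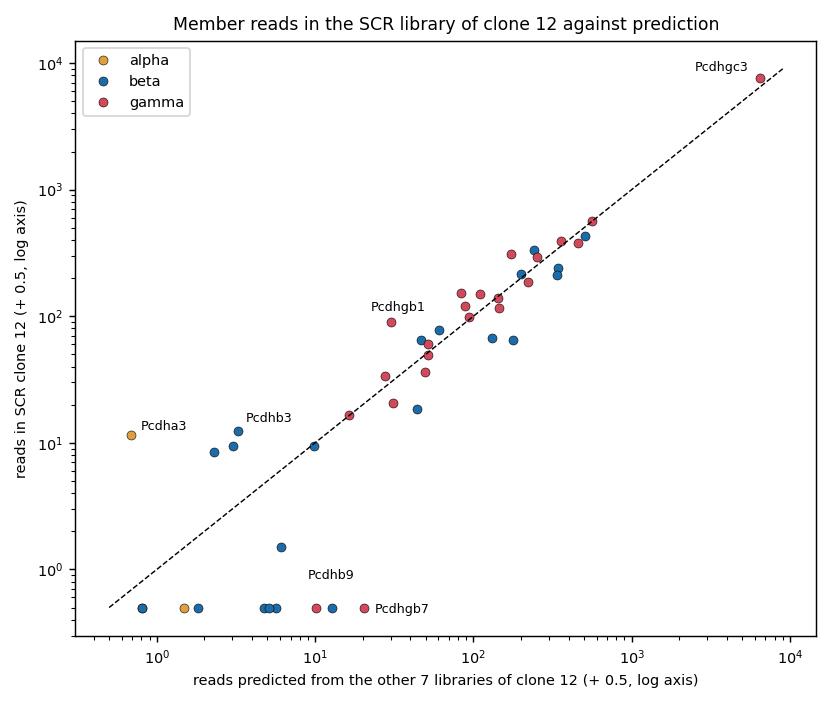
Reads of each member found in the SCR library of clone 12 (vertical, log axis, + 0.5) against the reads predicted from the other 7 libraries of the clone (horizontal, log axis, + 0.5); the dashed line marks equality. Pcdhb9 and Pcdhgb7 lie at 0 reads with 12.2 and 19.7 predicted, Pcdha3 lies above the line with 11 reads, and Pcdhgc3 lies at the top right with 7619.

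Genes that act on the clusters or resemble their products were counted in the same comparisons, where 62.6% of all tested genes were called between clones 14 and 12 and 47.6% between clones 25 and 18. Of 26 tested chromatin and DNA regulators (CTCF, cohesin and its loaders, DNA methylation enzymes and silencing factors), 16 were called between clones 14 and 12, 3 higher and 13 lower, with a median log2 difference of -0.31. The 4 with the smallest p were lower in clone 14: Tet1, an enzyme that oxidises methylated cytosine (-5.10 ± 0.22, edgeR adjusted p = 2.75e-13), Wiz (-0.42), Smchd1, a silencing factor known to act on the protocadherin clusters (-0.63), and Pds5b, a cohesin regulator (-0.59). Tet1 stood at 3.03 to 15.8 CPM in clone 12 and at 0.0629 to 0.379 CPM in clone 14. Between clones 25 and 18, 14 were called, 13 higher and 1 lower, with Trim28 at -0.49, Tet3 at 0.79, Stag1 at 0.59 and Dnmt3a at 0.82. Against no transfection, 17 of the 26 were lower with siRNA and 0 higher, where 21.9% of all genes were lower and 17.4% higher. In clone 14 the long-transcript balance moved with this comparison, and its part in these counts was not tested. The smallest p was that of Rad21, the kleisin subunit of cohesin (-0.55 ± 0.07, edgeR adjusted p = 2.31e-05).

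Of 13 tested non-clustered protocadherins and related giant cadherins, 11 were called between clones 14 and 12, 3 higher and 8 lower, among them Dchs1 (-8.51), Pcdh1 (5.42), Fat2 (3.73) and Pcdh9 (-5.64). Dchs1 was at 8.55 to 32.1 CPM in clone 12 and at most 0.110 CPM in clone 14. Between clones 25 and 18, 11 of the 13 were called, 6 higher and 5 lower, led by Fat2 (-6.90) and Pcdh19 (-2.27). Of 8 classical cadherins 7 and 6 were called in these comparisons, with Cdh1, the epithelial cadherin, 5.52 higher in clone 14 on the log2 scale and Cdh11, a mesenchymal one, 3.66 lower (log2 difference -3.66). Of 14 tested genes that flank the clusters, 7 were called between clones 14 and 12 (6 higher, 1 lower; median 0.27) and 6 between clones 25 and 18 (0 higher, 6 lower; median -0.27). Among these neighbours Arap3 had the smallest p in both, at 3.03 ± 0.08 and -1.64 ± 0.13. Of 21 tested partners of the proteins in signalling and cleavage, 11 and 10 were called, with Ptk2b, a kinase known to bind protocadherin tails, at 4.62 and 1.39 and Psen2, part of gamma-secretase, at 2.45 and 1.29. Taken without direction, the counts of regulators, neighbours and partners were near or below the all-gene shares between clones 14 and 12. By direction, 13 of 26 regulators were lower and 3 higher in clone 14, where 33.4% and 29.2% of all genes were. In clone 25, 13 were higher and 1 lower than in clone 18, where 22.9% and 24.6% of all genes were.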

How the data were processed

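Per the labels' protocols, RNA was extracted the morning after transfection or treatment, and libraries were stranded poly(A) single reads. HTSeq 0.6.1p1, Bowtie2 2.2.3, TopHat2 2.0.13, FastQC, CASAVA 1.8.2 and the build mm10 are named, per the submitters' processing notes. No source used here gives the counting mode, strand setting or annotation. The authors deposited raw counts per gene for 28 libraries in 1 table, and every column was used. The 22 rows without a gene ID held at most 0.0137% of a library.

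From the counts, CPM were computed with TMM factors (edgeR 4.0.16, R 4.3.3). After filterByExpr, the robust quasi-likelihood model was fitted to all 28 libraries (15099 genes, 17 coefficients, 11 residual degrees of freedom, biological coefficient of variation 14.6%) with clone as a block, or to 12 libraries (14229 genes) for the comparison among 4 clones; p-values were adjusted over all tested genes. Clone numbers pair libraries because they name the same cells. Deviations of same-clone libraries from their treatment mean correlated at 0.834 or more over 62 pairs. Each mean was of both tagged or both untagged clones. These correlations therefore restate the clone difference and give no separate support for the pairing. Standard errors are of log2 fold changes. Own exon lengths, leaving out exons shared between members, came from GENCODE M21. Precision is set by the 917 to 13106 member reads per library, and floors cover counting error only. In simulated counts, 100 genes were changed 2-fold and 100 changed 4-fold. The fit for clone 14 against clone 12 recovered 91 and 97 of them, and that for transfection 88 and 93. Recovery was lower for the difference between tag siRNA responses (55 and 81), leptomycin B (65 and 87) and tag siRNA in untagged clones (72 and 94). The simulation gave every gene the same spread, so recovery for members of low count was not measured.

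Values were named for the 3 members of highest mean CPM per family and clone (ranked per kilobase where genes are compared), the 4 called members with smallest p per comparison, zeros in SCR clone 12, and up to 4 called genes per list. The members, lists and comparisons were chosen with earlier results of these data known. DESeq2 1.42.0, other filters and normalizations, left-out libraries and other limits were tried as alternatives. No sequences are shown.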

Additional observations from a re-analysis of the deposited data

Results flagged for a closer look

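Levels named in the report were checked for a library far from the rest of its line, in the lines with 8 or 6 libraries. Of 82 such groups of values 10 had one. The limit flags about 1 in 20 groups of independent, normally spread values. Counts near 0 and sums that share members are not such values, so the 10 cannot be set against that rate. Pcdha3 was highest in SCR clone 12, at 0.131 CPM (11 reads), with the next library at 0.0162 CPM, and in clone 14 it was highest in Nature siRNA at 0.0335 CPM, a single read. Pcdhac2 was highest in leptomycin B of clone 12, at 0.0533 CPM, which is 2 reads. Pcdhgb4 was highest in Qiagen siRNA of clone 12, at 0.307 CPM, with the next at 0.143 CPM. In the mCherry lines, HA siRNA of mCherry replicate 1 had the highest Pcdhac2 (0.785 CPM, next 0.285 CPM), the highest alpha sum (0.849 CPM, next 0.285 CPM) and the highest Pcdhb20 (1.93 CPM, next 0.962 CPM). HA siRNA of FLAG-mCherry-HA replicate 1 had the highest Pcdhb9 (0.190 CPM, next 0.0627 CPM) and the highest Pcdhga10 (0.792 CPM, next 0.347 CPM). HA siRNA of mCherry replicate 2 had the lowest share of member reads in Pcdhgc3, 38.6% against 63.1% or more in the other 5, and its long-transcript balance was the lowest of the mCherry lines (-0.75). Both replicate 1 libraries with high values had a positive balance, 0.21 and 0.54, and its part was not tested.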

How the results depend on the processing

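Direction was compared for up to 4 called members per comparison, and none of these changed direction under any alternative run. The directions of other members were not compared. Of 276 alternative values of the main counts, 235 stayed within 1.5 times, or at 0 where the main count was 0. A stricter filter left 16 members called among the 4 clones, 11 between clones 25 and 18 and 0 for the cyclin D1 siRNAs, with fewer members tested. Without libraries of over 2% Rn45s the cyclin D1 siRNAs called 0. Without the clone as a replicate block, 0 were called for the cyclin D1 siRNAs, for SCR against untreated and for transfection; the block changed no other call. Fitting only the libraries compared gave 2 for tag siRNA in tagged clones, 0 for cyclin D1 siRNA and 1 for leptomycin B; the cause was not tested. With the long-transcript balance as a covariate, added after seeing the data, 1 was called for leptomycin B, 0 for SCR against untreated, 1 for mCherry lines against clone 18 and 0 for transfection. Leaving out single libraries gave 9 to 12 between clones 25 and 18, 0 to 1 for the cyclin D1 siRNAs, 0 to 1 for SCR against untreated and 4 to 17 for transfection. The shares of all genes called under these alternatives are not given beside the counts. At 0.5 CPM, 10, 22, 14 and 18 members were counted in clones 14, 25, 18 and the mCherry lines. At 2 CPM there were 13, 7, 4 and 4 in clones 12, 25, 18 and the mCherry lines. Counted as at least 10 reads in every library, there were 27, 18 and 16 in clones 25, 18 and the mCherry lines. Zeros in SCR clone 12 numbered 4 at 5 reads predicted, 0 at 20, and 0 when predicted from the lowest share. Depth limits the alpha genes other than Pcdhac2 and 10 beta genes, which did not pass the low-count filter and were not tested.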
